A study of Homo sapiens with 6 samples.

Results

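Silencing of PBRM1 in BT-549 cells was examined for 10 genes whose products make, trim or destroy histone mRNA: SLBP, NPAT, CASP8AP2, LSM10, LSM11, ZNF473, ERI1, CPSF3, SYMPK and UPF1. They were taken by symbol from a count table of 37887 rows, and all 10 were found there. BT-549 is an established triple-negative breast cancer line. The series holds 3 libraries labelled control shRNA and treated with 0.1% DMSO (shCTL) and 3 labelled shPBRM1 and treated with 500 ng/ml doxycycline (DOX, shPBRM1). The series design describes both groups as the same cells, stably carrying a tet-PBRM1 shRNA vector that DOX switches on, whereas the titles name a control shRNA for the DMSO group. In either reading, what DOX itself does, what the hairpin does apart from PBRM1 and what the loss of PBRM1 does cannot be told apart. If the titles hold, the groups also differ in the vector they carry and in the transduced cells, which cannot be told apart from the rest either. The methods state that transduced cells were selected in puromycin, and the labels do not say whether the line was 1 clone. The series design states that cells were cultured in triplicate, so p-values measure the spread between these cultures of BT-549, and not between separately transduced lines.

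Genes of the DNA replication-dependent histones are transcribed in S phase, and their mRNAs are the only known metazoan cellular mRNAs without a poly(A) tail. Their pre-mRNAs end in a short stem-loop that is bound by SLBP, and they are cut just after it by a complex that the U7 small nuclear ribonucleoprotein (U7 snRNP) guides through base pairing with a purine-rich element downstream. When DNA synthesis stops, the same stem-loop serves in their rapid decay. When processing fails, downstream polyadenylation signals can give histone mRNAs a tail.

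The RNA sequences at the centre of this machinery are shown first, since most of the 10 genes act on them or on the complex built there. U7 snRNA (RNU7-1, 63 bases in GENCODE v29 on GRCh38) carries the Sm-type site, in capitals, on which LSM10 and LSM11 are assembled with the shared Sm proteins, and its 5′ end pairs with the histone pre-mRNA.
RNU7-1, chr12:6943816-6943878, strand +: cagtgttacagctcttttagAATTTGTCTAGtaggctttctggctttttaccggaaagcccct
RNU7-1 itself had 0 counts in each of the 6 libraries, which were made with a kit for poly(A) mRNA.

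The stem-loop was searched for, by the pattern of its stem and loop, in the GENCODE v29 transcripts of 90 histone genes. These genes were taken by symbols starting HIST1H, HIST2H, HIST3H or HIST4H, as a stand-in for the replication-dependent histones. Gene type was not filtered, so pseudogenes or genes that are not replication-dependent can be among them. It was found in 35 of them, in 6 forms, and in 0.0876% of the transcripts of all genes. Of these 181 transcripts with the pattern, only 51 came from histone genes, so the pattern is not particular to histone mRNA. A missing match says only that these letters are not in the annotated transcript. The sites of the most highly expressed matched gene of the H2A, H2B, H3 and H4 classes are given, with the stem-loop in capitals.
HIST1H2AC, chr6:26124664-26124693, strand +: ccaaaGGCTCTTTTCAGAGCCcccctaccg
HIST2H2BE, chr1:149886179-149886208, strand -: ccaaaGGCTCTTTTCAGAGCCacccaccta
HIST1H3H, chr6:27810511-27810540, strand +: ccaaaGGCTCTTTTCAGAGCCacccacatg
HIST1H4E, chr6:26204996-26205025, strand +: tcaaaGGCCCTTTTCAGGGCCgcccacagt
The H2A, H2B and H3 examples share 1 form of the stem-loop, which 18 of the 35 genes had, and the H4 example has another, found in 5 genes.

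Total counts ran from 36429395 to 65096297 per library. Levels are given as CPM, that is, counts scaled to the TMM-normalized library size, and a floor of 3 counts equals 0.0471 to 0.0804 CPM by counting error only. Every one of the 10 genes lay far above this floor, with between 492 and 5377 counts per library. PBRM1, the targeted gene, stood at 157, 157 and 161 CPM in shCTL and at 43.3, 40.9 and 41.7 CPM in shPBRM1 libraries, or 26.5% of its control level. Libraries of 1 group differed by more than sampling noise, and the pairs with shPBRM1 replicate 1 stood apart, where chi-square divided by its degrees of freedom was 19.5 and 22.6, against 4.66 to 6.86 for the other pairs. VIM, a mesenchymal marker, had 22474 to 48158 counts. Of the receptors that define triple-negative tumours, ESR1 and PGR had at most 2 and 12 counts, whereas ERBB2 had 1906 to 3161 counts and was thus expressed. Of the epithelial markers, EPCAM and KRT5 had at most 8 and 24 counts, whereas CDH1 had more, as given below. CD3E and HBB, of T cells and red cells, had 0 counts, and CD68 and PECAM1 at most 11 and 18. CDH1 had 186 to 271 counts in shCTL and 58 to 110 in shPBRM1 (log2 fold change -1.73, edgeR quasi-likelihood test, adjusted p = 9.58e-10). PTPRC, of leukocytes, had 26 to 44 and 4 to 12 counts (log2 fold change -2.55, same test, adjusted p = 6.35e-06). The part of these in the results was not tested.

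All 10 genes passed the filter on low counts, and edgeR's quasi-likelihood test was run on them together with the rest of the 15450 genes kept. In shPBRM1 relative to shCTL cells, 5 genes (SLBP, LSM10, LSM11, ZNF473 and CPSF3) were higher and 3 genes (CASP8AP2, SYMPK and UPF1) were lower at an adjusted p under 0.05, and NPAT and ERI1 did not pass. Of all tested genes, 64.7% passed this threshold in either direction, 31.5% higher and 33.2% lower, so the 8 of 10 lay near this background and are no result about these genes as a set. The changes were small. None of the 10 genes changed by a fold over 2, which 12.6% of all tested genes did, and the largest change among them was exceeded in size by 42.6% of all tested genes. On the log2 scale, the 10 genes had a median change of 0.13, against -0.0080 for all tested genes, and a median size of change of 0.26 against 0.35. The normalized values of the groups did not overlap for 8 of the 10 genes, against 68.3% of all tested genes. Without shPBRM1 replicate 1, the counts were again 5 and 3, for the same genes.

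**Figure D1:**
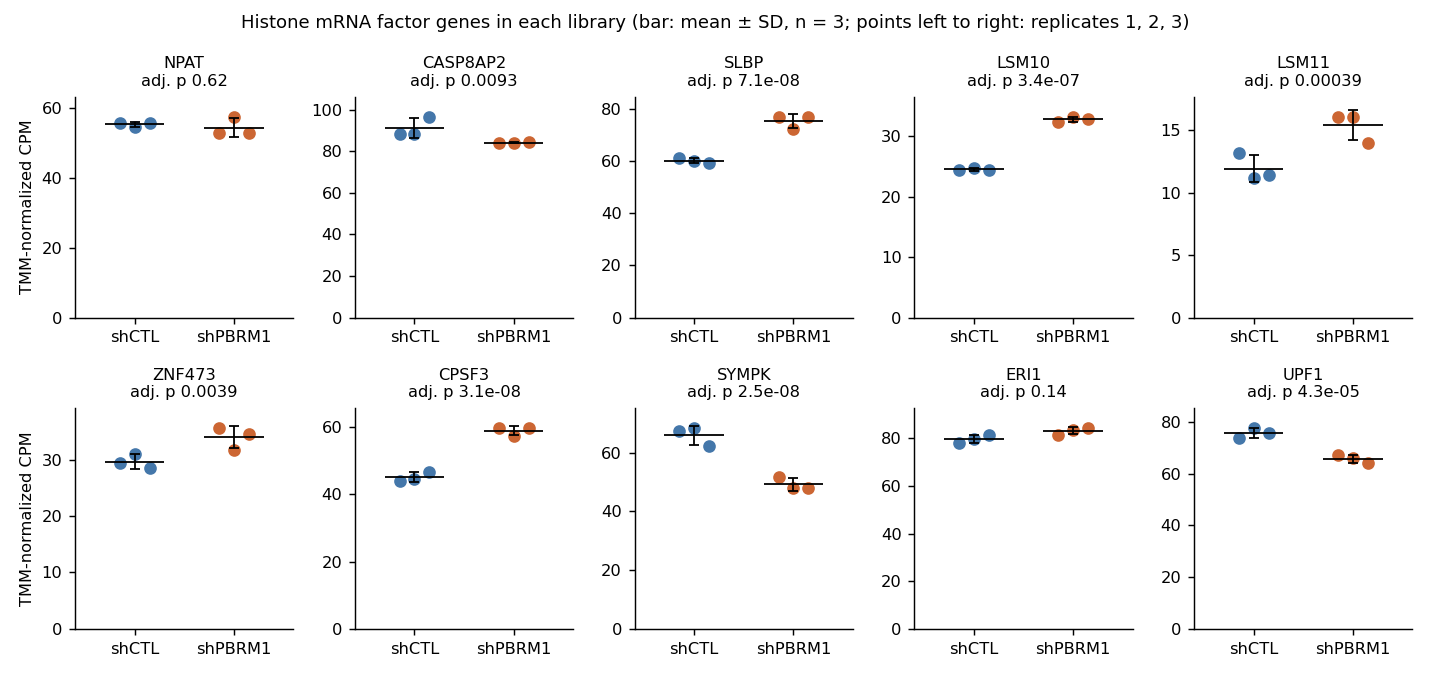
Normalized CPM of the 10 genes in each library, with 1 panel per gene, a vertical axis that starts at 0, points for the 3 replicates of each group and a bar with whiskers for the mean ± SD. SLBP, LSM10, LSM11, ZNF473 and CPSF3 sit higher in shPBRM1 without overlap, CASP8AP2, SYMPK and UPF1 sit lower without overlap, and the groups overlap for NPAT and ERI1.

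NPAT and CASP8AP2 act at the histone genes themselves, and neither rose. NPAT, a coactivator that cyclin E-CDK2 phosphorylates and that is needed for histone gene transcription, lies on chromosome 11 from 108157215 to 108222642 (minus strand, GENCODE v29, GRCh38). NPAT levels were 55.7, 54.6 and 55.7 CPM in shCTL replicates 1, 2 and 3 and 52.9, 57.6 and 52.9 CPM in the shPBRM1 replicates, so that the control values lay inside the range of the silenced ones. Its log2 fold change was -0.03 (SE 0.042, edgeR quasi-likelihood test, adjusted p = 0.622). The limma-voom 95% interval of this NPAT difference ran from -0.12 to 0.06.

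CASP8AP2 encodes FLASH, which sits with NPAT in the nuclear histone locus body and also binds LSM11 to bring the cleavage factors to histone pre-mRNA. It lies on chromosome 6 from 89829894 to 89874436. CASP8AP2 levels were 88.3, 88.1 and 96.5 CPM in shCTL and 83.8, 83.9 and 84.2 CPM in shPBRM1 cells. All 3 silenced values lay just under the lowest control value, and shCTL replicate 3 stood above the other controls. The log2 fold change of CASP8AP2 was -0.12 (SE 0.044, edgeR adjusted p = 0.00935). Without shCTL replicate 3 it was -0.07 (adjusted p = 0.108, the highest of a range from 0.000443 over all alternatives), so this call rests on that library. The ratio of CASP8AP2 to NPAT counts was 1.64 ± 0.078 in shCTL and 1.54 ± 0.075 in shPBRM1 cells (SD, n = 3 each), with overlap (exact two-sided permutation test, p = 0.2).

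SLBP, the stem-loop binding protein that stays with histone mRNA through processing, export and translation, lies on chromosome 4 from 1692800 to 1712555. SLBP had 61.0, 60.1 and 59.4 CPM in shCTL and 77.0, 72.2 and 76.8 CPM in shPBRM1 cells. SLBP thus averaged 60.2 ± 0.804 CPM in the first group and 75.3 ± 2.68 CPM in the second (SD, n = 3 each). The silenced libraries were all above the controls, by a log2 fold change of 0.33 (SE 0.032, edgeR adjusted p = 7.15e-08), or 1.25-fold.

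The transcripts of both proteins that are particular to the U7 snRNP rose. LSM10 and LSM11 take the places that SmD1 and SmD2 hold in the spliceosomal particles, and they lie on chromosome 1 from 36391238 to 36397892 and on chromosome 5 from 157743695 to 157760709. LSM10 had 24.4, 24.8 and 24.4 CPM in shCTL and 32.4, 33.2 and 32.8 CPM in shPBRM1 cells. The groups were far apart against the spread within them. Its log2 fold change was 0.42 (SE 0.013, edgeR adjusted p = 3.36e-07), the largest increase among the 10 with all libraries. LSM11, with the lowest counts of the 10, had 13.2, 11.1 and 11.4 CPM in shCTL and 16.1, 16.1 and 14.0 CPM in shPBRM1 cells. The groups of LSM11 stayed apart, but by less than for LSM10, with a log2 fold change of 0.37 (SE 0.10, adjusted p = 0.00039). LSM11 ranked above LSM10 without shCTL replicate 1 (0.44 against 0.41) and without shPBRM1 replicate 3 (0.44 against 0.42). The ratio of LSM10 to LSM11 counts, in which no scaling factor enters, was 2.07 ± 0.197 (SD, n = 3) in shCTL and 2.14 ± 0.178 (SD, n = 3) in shPBRM1 cells, with groups that overlapped (exact two-sided permutation test, p = 0.7, adjusted over the ratios 0.817).

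ZNF473 (ZFP100), a zinc finger protein that binds LSM11 and takes part in U7-dependent cleavage, lies on chromosome 19 from 50025714 to 50053414. Its levels were 29.5, 31.0 and 28.5 CPM in shCTL and 35.6, 31.8 and 34.6 CPM in shPBRM1 cells, with shPBRM1 replicate 2 close to the highest control. The log2 fold change of ZNF473 was 0.20 (SE 0.061, edgeR adjusted p = 0.00388). ZNF473 starts 232 bases from VRK3 on the other strand and shares 223 exonic bases with it. VRK3 counts were 834, 1082 and 1021 in shCTL and 1685, 1065 and 1846 in shPBRM1 cells, and VRK3 rose by a log2 fold change of 0.38. The setting for strand in the counting is not given in the sources used here. ZNF473 also shares 245 exonic bases with the antisense AC010624.3, and the part of shared reads in its value was not tested.

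The cleavage subunits moved in opposite directions. CPSF3 encodes CPSF73, the endonuclease that cuts histone pre-mRNA and also cuts other pre-mRNAs before polyadenylation, and lies on chromosome 2 from 9423568 to 9473101. CPSF3 rose from 44.0, 44.6 and 46.7 CPM in shCTL to 59.6, 57.5 and 59.7 CPM in shPBRM1 cells, a gap several times wider than the spread within either group. Its log2 fold change was 0.38 (SE 0.031, edgeR adjusted p = 3.09e-08). SYMPK encodes symplekin, the scaffold that holds the nuclease module together, and lies on chromosome 19 from 45815410 to 45863290. SYMPK fell from 67.3, 68.4 and 62.2 CPM in shCTL to 51.9, 48.1 and 48.0 CPM in shPBRM1 cells. With a log2 fold change of -0.42 (SE 0.056, adjusted p = 2.49e-08), SYMPK had the largest decrease of the 10 genes, to 74.8% of its control level. It shares 41 exonic bases with an antisense transcript, AC092301.1, whose reads were not told apart from its own here.

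CPSF2 (CPSF100), the partner of CPSF3 in this module and not 1 of the 10 genes, gave a reference for both. Its mean was 181 ± 4.74 CPM in shCTL and 185 ± 1.06 CPM in shPBRM1 libraries (SD, n = 3 each), with a log2 fold change of 0.03 (SE 0.022, edgeR adjusted p = 0.447). Raw counts were then divided within each library, so that depth and scaling cancel. The ratio of CPSF3 to SYMPK counts was 0.655, 0.653 and 0.752 in shCTL and 1.15, 1.20 and 1.24 in shPBRM1 cells. The ratio was 1.75-fold higher in shPBRM1 cells. Counts are not scaled to gene length, so a ratio of 1 does not mean equal abundance. Per kb of exon, CPSF3 stood above SYMPK already in shCTL, at 12.0 against 6.20 CPM per kb. The ratio of CPSF3 to CPSF2 counts went from 0.250 ± 0.0072 (SD, n = 3) to 0.319 ± 0.0079 (SD, n = 3), and that of SYMPK to CPSF2 counts from 0.365 ± 0.027 (SD, n = 3) to 0.267 ± 0.011 (SD, n = 3). None of these 3 ratios overlapped between the groups. Each gave p = 0.1 in the exact two-sided permutation test, the smallest p that 3 libraries against 3 allow, and 0.175 after Benjamini-Hochberg adjustment over the 7 ratios compared, which were chosen after the values had been seen.

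**Figure D2:**
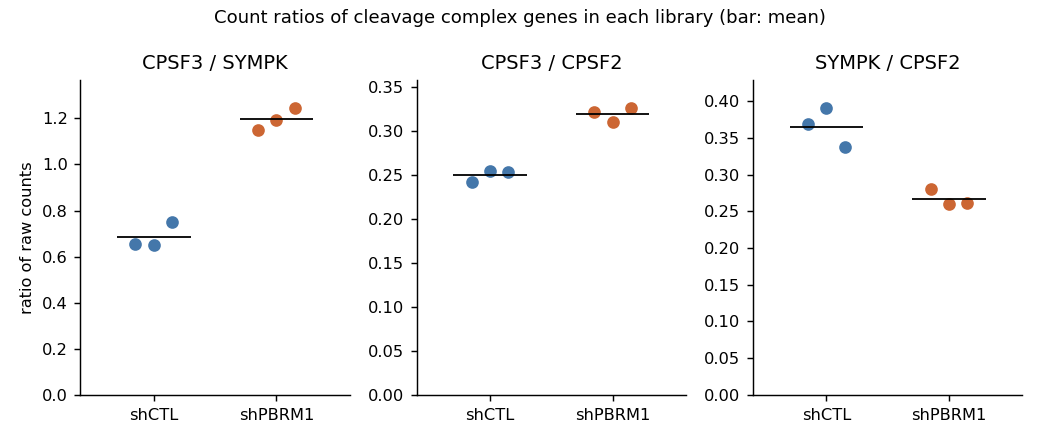
Ratios of raw counts between cleavage complex genes in each library, with points for the replicates, a bar for the mean and vertical axes that start at 0. CPSF3 to SYMPK lies between 0.653 and 0.752 in shCTL and between 1.15 and 1.24 in shPBRM1, CPSF3 to CPSF2 is higher in shPBRM1, and SYMPK to CPSF2 is lower.

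Of the pair that acts in the decay of histone mRNA, UPF1 fell and ERI1 did not pass the test, and the difference between them was not tested. ERI1, the exonuclease (3′hExo) that binds the stem-loop together with SLBP and trims its 3′ end, lies on chromosome 8 from 9002147 to 9116746. ERI1 had 77.9, 79.9 and 81.6 CPM in shCTL and 81.5, 83.7 and 84.4 CPM in shPBRM1 cells, so that shPBRM1 replicate 1 lay just under the highest control, while each shPBRM1 library was above the control of the same number (3 of 3 pairs). Its log2 fold change was 0.06 (SE 0.024, edgeR adjusted p = 0.139), with a limma-voom 95% interval from -0.02 to 0.14, and the adjusted p was 0.131 in edgeR with the replicate number as a block and 0.0979 to 0.813 over all alternatives. UPF1, the helicase of nonsense-mediated decay that is also recruited to histone mRNA when replication stops, lies on chromosome 19 from 18831938 to 18868236. UPF1 had 73.6, 77.6 and 75.7 CPM in shCTL and 67.2, 66.0 and 64.1 CPM in shPBRM1 cells, and the groups did not overlap. The log2 fold change of UPF1 was -0.20 (SE 0.030, adjusted p = 4.3e-05). The ratio of SLBP to ERI1 counts, for the proteins that share the stem-loop, was 0.754 ± 0.027 (SD, n = 3) in shCTL and 0.906 ± 0.041 (SD, n = 3) in shPBRM1 cells, without overlap (exact two-sided permutation test, p = 0.1, the smallest p possible). This ratio is not scaled to gene length, and per kb of exon SLBP stood above ERI1 in shCTL, at 29.7 against 12.5 CPM per kb.

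**Figure D3:**
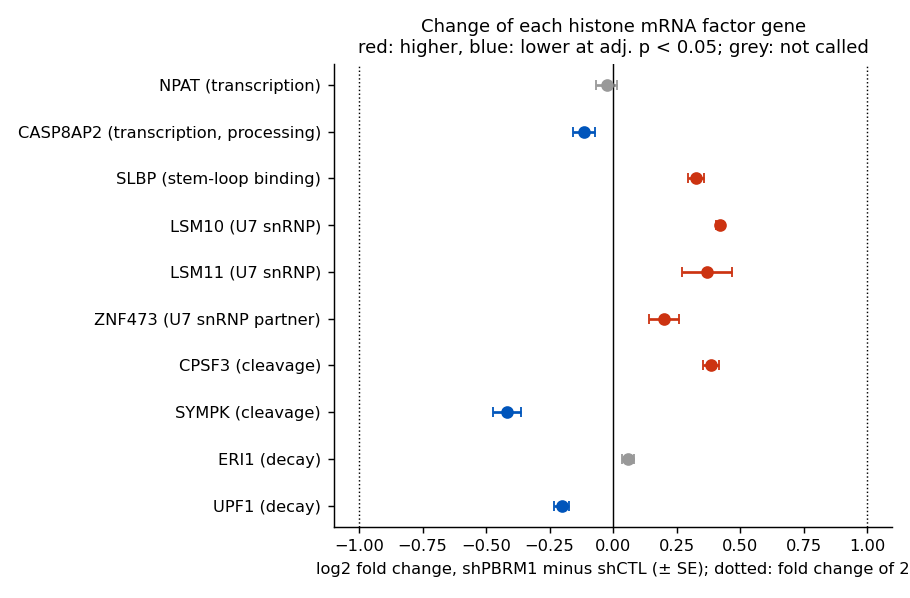
Log2 fold change, shPBRM1 minus shCTL, of each of the 10 genes in the order of their roles, with the standard error as whiskers and dotted lines at a fold change of 2. The increases reach 0.42 for LSM10 and the decreases reach -0.42 for SYMPK, and no gene comes near the dotted lines.

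Levels were compared between genes per kb of exon, using the union of the exons of each gene in GENCODE v29. On this scale SLBP was the most abundant of the 10 in shCTL cells, at 29.7 ± 0.397 CPM per kb (SD, n = 3), followed by LSM10 at 16.4 ± 0.161, ERI1 at 12.5 ± 0.285, CPSF3 at 12.0 ± 0.372 and CASP8AP2 at 11.1 ± 0.591 CPM per kb. The libraries of ERI1 and CPSF3 overlapped, as did those of CPSF3 and CASP8AP2, so their order was not resolved. UPF1 followed at 8.79 ± 0.231, NPAT at 7.35 ± 0.0853, SYMPK at 6.20 ± 0.313 and ZNF473 at 4.30 ± 0.184 CPM per kb, each apart from the next. LSM11 was the lowest at 1.81 ± 0.168 CPM per kb, so that the transcripts of the U7-specific pair differed widely in level. In shPBRM1 cells SLBP at 37.2 ± 1.32 and LSM10 at 21.9 ± 0.273 CPM per kb again led and LSM11 at 2.33 ± 0.181 was again last. CPSF3, at 15.6 ± 0.339 CPM per kb, then lay above ERI1 at 13.0 ± 0.233 without overlap, and SYMPK at 4.64 ± 0.208 overlapped with ZNF473 at 4.93 ± 0.288 CPM per kb. With the length of the longest transcript in place of the exon union, SYMPK at 10.1 CPM per kb moved above NPAT at 9.05 CPM per kb in shCTL, and UPF1 at 14.1 above CASP8AP2 at 13.5 CPM per kb, although the libraries of this last pair overlapped.

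**Figure D4:**
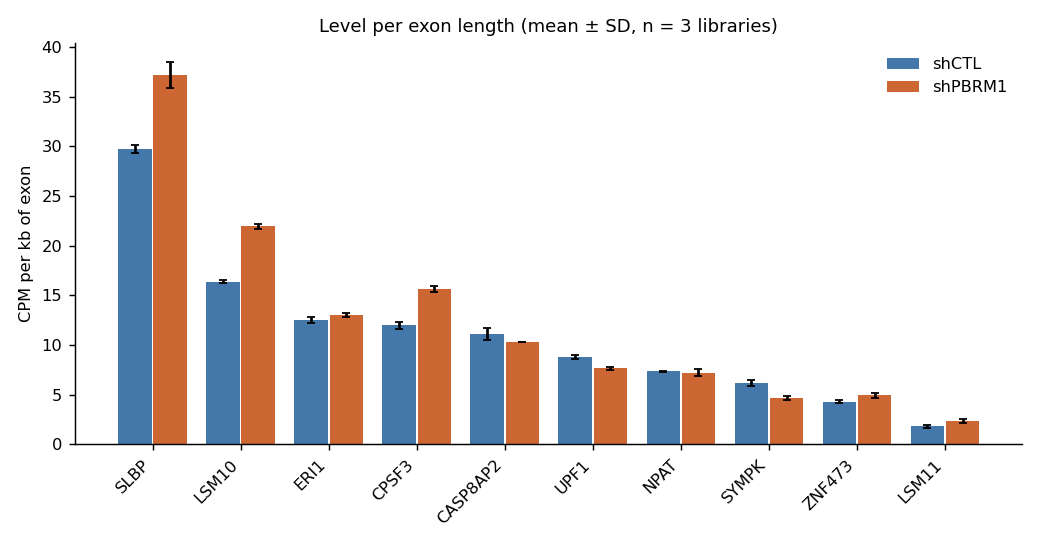
CPM per kb of exon of the 10 genes in shCTL and shPBRM1 cells, as bars from 0 with the SD of 3 libraries, ordered by the shCTL level. SLBP and LSM10 are the most abundant transcripts per length in both groups and LSM11 is the least abundant, at 1.81 CPM per kb in shCTL.

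Several of these genes start next to another gene, which gives a comparison within 1 promoter region. NPAT and ATM, the kinase of the DNA damage response, start 158 bases apart on opposite strands and share 143 exonic bases. For ATM, edgeR gave a log2 fold change of -0.02 (SE 0.037, adjusted p = 0.681), beside -0.03 for NPAT. The ratio of NPAT to ATM counts was 0.401 ± 0.0059 (SD, n = 3) in shCTL and 0.400 ± 0.032 (SD, n = 3) in shPBRM1 cells. CPSF3 and ITGB1BP1, an integrin-binding adaptor, start 21 bases apart on opposite strands. ITGB1BP1 counts were 841, 1127 and 1192 in shCTL and 2500, 1557 and 2743 in shPBRM1 cells, and its log2 fold change was 0.85 (SE 0.036, adjusted p = 2.39e-12), above that of CPSF3 itself. FOXA3, which starts 699 bases from SYMPK, had at most 22 counts, and its log2 fold change of -0.59 (SE 1.0) did not pass the test (adjusted p = 0.403).

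Promoter sequences, from 250 bases before to 50 bases after the RefSeq start on GRCh38.p14, were found for 8 of the 10 genes. They were searched on both strands for the E2F-type words TTTGGCGC, TTTCCCGC, TTTGGCGG and TTTCGCGC, which resemble sites of the factors that switch on S-phase genes, and for CCAAT, the core of an element common in such promoters. The words overlap each other in part. TTTGGCGC was found in the promoters of CASP8AP2 and CPSF3 and in 0.652% of all 35116 promoter windows, and the other 3 E2F-type words were found in none of the 8. CCAAT was found in NPAT, CASP8AP2, LSM10 and UPF1, and in 34.6% of all windows. These matches are descriptions of the letters, and their part in the changes of the genes was not tested. The windows of CASP8AP2 and CPSF3 are shown for this shared word, and that of NPAT for the region it shares with ATM, with the matched words on either strand in capitals.
CASP8AP2 promoter, chr6:89829630-89829929, strand +: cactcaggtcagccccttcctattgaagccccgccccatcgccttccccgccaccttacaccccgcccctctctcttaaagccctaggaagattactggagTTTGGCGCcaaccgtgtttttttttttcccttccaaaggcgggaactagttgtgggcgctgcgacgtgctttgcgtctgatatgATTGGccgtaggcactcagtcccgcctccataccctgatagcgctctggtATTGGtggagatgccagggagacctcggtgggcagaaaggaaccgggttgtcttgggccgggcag
CPSF3 promoter, chr2:9423404-9423703, strand +: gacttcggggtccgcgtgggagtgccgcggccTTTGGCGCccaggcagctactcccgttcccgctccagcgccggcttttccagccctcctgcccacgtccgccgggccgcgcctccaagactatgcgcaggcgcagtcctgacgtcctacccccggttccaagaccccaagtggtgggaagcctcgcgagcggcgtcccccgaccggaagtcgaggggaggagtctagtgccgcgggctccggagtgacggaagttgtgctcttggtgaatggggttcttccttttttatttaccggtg
NPAT promoter, chr11:108222589-108222888, strand -: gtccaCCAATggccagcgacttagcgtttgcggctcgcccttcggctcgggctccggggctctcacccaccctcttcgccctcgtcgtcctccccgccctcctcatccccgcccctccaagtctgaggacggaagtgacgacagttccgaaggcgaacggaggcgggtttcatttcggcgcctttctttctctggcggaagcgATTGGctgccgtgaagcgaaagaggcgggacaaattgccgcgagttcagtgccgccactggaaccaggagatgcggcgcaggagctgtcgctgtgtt

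A wider list of genes of the same pathway, without the 10, held 74 genes of the table, of which 73 were tested. Of these, 35 rose, 19 fell and 19 did not pass at an adjusted p under 0.05, with a median log2 fold change of 0.12. That is 74.0% called, beside 64.7% of all tested genes. By part of the list, 61.5% were called for transcription, 73.9% for 3′ end processing, 71.4% for export, translation and SLBP turnover and 83.3% for decay. The counts below are to be read beside the share of all tested genes. By a fold over 2, 4 of the 73 rose and none fell in edgeR's quasi-likelihood test (19 fell at the adjusted p alone). Of all tested genes, 443 rose and 1496 fell by this measure, 12.6% in either direction.

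Among 13 other genes tied to histone gene transcription, 6 rose, 2 fell and 5 did not pass. The largest increases were those of CCNA2, CDC25A and CCNE2. CCNA2, cyclin A2, rose from 56.0 ± 0.560 to 124 ± 2.11 CPM (SD, n = 3; log2 fold change 1.15), CDC25A, the phosphatase that activates CDK2, by a log2 fold change of 0.75, and CCNE2, cyclin E2, by 0.61. CCNE1, cyclin E1, had a log2 fold change of -0.12 (edgeR adjusted p = 0.325), at 7.50 ± 0.467 and 6.99 ± 0.910 CPM (SD, n = 3). HINFP, the factor that binds histone H4 promoters, fell by a log2 fold change of -0.43 (SE 0.071, adjusted p = 1.71e-05), and KAT5, an acetyltransferase, by -0.30.

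Among 23 other tested genes of 3′ end processing, 11 rose, 6 fell and 6 did not pass, with a median log2 fold change of 0.23. NELFCD, 1 of the 6 that did not pass, had only 2 to 14 counts per library, near the floor. Of the 5 Sm proteins that the U7 ring shares with spliceosomal particles, 4 rose, led by SNRPG (log2 fold change 0.66), SNRPF (0.61) and SNRPE (0.56), whereas SNRPB had 0.03 (edgeR adjusted p = 0.72). SNRPD1 and SNRPD2, which encode the Sm proteins that LSM10 and LSM11 replace and were added after the values had been seen, rose by log2 fold changes of 0.42 and 0.61. The decreases were led by NCBP2, a subunit of the nuclear cap-binding complex (log2 fold change -0.32), FIP1L1 (-0.26) and CDK9 (-0.21). Of 10 genes that serve cleavage and polyadenylation, 2 rose, 3 fell and 5 did not pass (50% called), with a median of 0.02. CSTF2T, which did not pass, stands in this list and in that of 3′ end processing, so they are not separate sets.

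Genes of histone mRNA export and translation and of SLBP turnover changed in both directions. CCNF, cyclin F, the ubiquitin ligase subunit that marks SLBP for destruction in G2, rose from 23.9 ± 0.188 to 58.8 ± 1.90 CPM (SD, n = 3; log2 fold change 1.30, SE 0.028, edgeR adjusted p = 1.02e-16). CDK1 rose by a log2 fold change of 0.75 and CCNA2 as given above, and cyclin A-CDK1 marks SLBP for degradation at the end of S phase. DDX19B, an RNA export helicase, fell from 13.4 ± 0.703 to 6.83 ± 0.114 CPM (SD, n = 3; log2 fold change -0.97). CTIF, a translation factor reported to act with SLBP, fell by a log2 fold change of -0.72, and FEM1C, a substrate receptor of a ubiquitin ligase, by -0.26. In all, 7 of these 14 genes rose, 3 fell and 4 did not pass.

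Among 24 other genes of decay, 12 rose, 8 fell and 4 did not pass, and the complexes split. All 7 genes of the Lsm1-7 ring, LSM1 to LSM7, which binds the oligouridylated end of histone mRNA, rose, by log2 fold changes from 0.21 for LSM1 to 1.06 for LSM3. LSM7 rose by 0.79. LSM1 thus rose least of the 7. Sm genes rose as well, all but SNRPB of those named above, and the part of histone mRNA decay in these increases was not tested. Of 7 genes of decapping and 5′ to 3′ decay, 5 fell, 1 rose and 1, EDC3, did not pass. PATL1, which joins the Lsm1-7 ring to the decapping enzyme, fell from 186 ± 7.05 to 107 ± 1.72 CPM (SD, n = 3; log2 fold change -0.80), DCP1A by a log2 fold change of -0.76 and XRN1, the 5′ to 3′ exonuclease, by -0.54. DCP2, the decapping enzyme itself, rose from 81.1 ± 1.36 to 202 ± 5.93 CPM (SD, n = 3; log2 fold change 1.31, SE 0.028, edgeR adjusted p = 3.58e-19), the largest increase of the wider list. The Lsm1-7 and decapping groups were set apart from the decay list after the values had been seen.

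**Figure D5:**
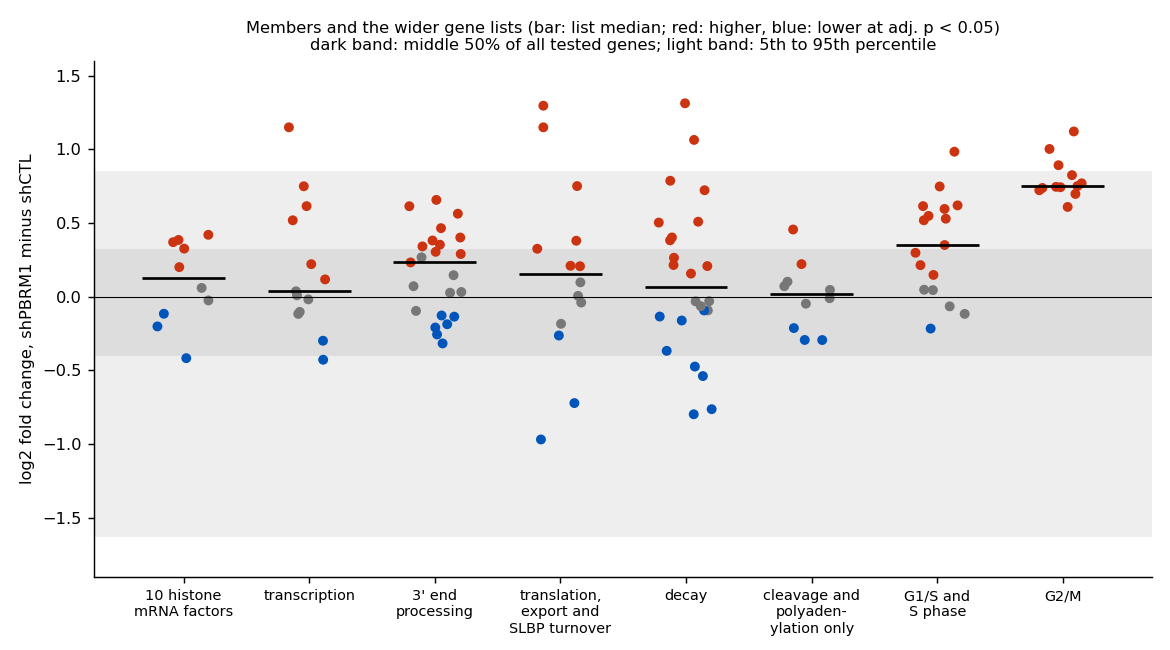
Log2 fold change of each tested gene of the 10 histone mRNA factors, the 4 wider lists, genes of cleavage and polyadenylation, and cell cycle genes, with a bar for each median and shaded bands for the spread of all tested genes. The 10 factors lie between -0.42 and 0.42, decay genes reach from -0.80 to 1.31, and the 12 G2/M genes lie from 0.61 to 1.12.

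Cell cycle genes also differed between shCTL and shPBRM1 cells. All 12 G2/M genes rose, with a median log2 fold change of 0.75, and their summed level was between 2024 and 2152 CPM in shCTL and between 3565 and 3570 CPM in shPBRM1 libraries. Of 17 G1/S and S phase genes, 12 rose, 1 fell and 4 did not pass, with a median of 0.35, and their summed level was between 1267 and 1279 CPM and between 1531 and 1569 CPM. None of these genes was at 0 in any library, and CCNE1, CCNE2, E2F1 and CDK1 stand in the wider list too. MKI67 rose by a log2 fold change of 0.74 and PCNA, the sliding clamp of DNA replication, by 0.53, both more than any of the 10 genes. More cells in a phase and more RNA per cell cannot be told apart in bulk libraries, and the part of the cell cycle in the changes of the 10 genes was not tested.

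Transcripts of the replication-dependent histones, on which these factors act, are given as a sum, with the examples shown above. The summed level of the 89 symbols of the table with the prefixes named above was 2662, 2933 and 2738 CPM in shCTL libraries. It was 6567, 7148 and 6917 CPM in shPBRM1 libraries, a 2.48-fold higher mean, which is wider than the change of any of the 10 genes. Of the 63 of these symbols that were tested, 55 rose and 1 fell in edgeR's quasi-likelihood test, with a median log2 fold change of 1.33. Among the 32 tested with a match to the stem-loop pattern, 28 rose and 0 fell, with a median of 1.31. Of all tested genes, 31.5% rose and 33.2% fell. HIST1H4E and HIST1H2AC, whose sites are shown above, rose by log2 fold changes of 1.28 (SE 0.036) and 1.14 (SE 0.077). Histone genes are near-identical copies, so reads can be split among them and values of single genes are uncertain. Libraries from poly(A) RNA capture transcripts without a tail only in part, and whether these reads come from tailed or tailless histone RNA was not tested.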

How the data were processed

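RNA-seq counts of 6 BT-549 libraries, 3 shCTL and 3 shPBRM1, were used. The deposited values were raw counts for each gene symbol, from libraries made with the TruSeq Stranded mRNA kit, and the authors had not normalized them. The submitters' processing notes name CASAVA 1.8.2, STAR 2.7.9a, featureCounts, DESeq2 1.24.0 and GRCh38.p7, and the annotation release and the strand setting are not given in the sources used here. Groups and replicate numbers came from the sample titles. The control columns carry only the cell line and a number, and were taken as shCTL because the other 3 columns are named shPBRM1.

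Counts were normalized with TMM, filtered with filterByExpr (15450 genes) and tested with edgeR 4.0.16 in R 4.3.3 (quasi-likelihood F-test, Benjamini-Hochberg adjustment over all genes tested). Standard errors were computed from the SD of log2 CPM (prior count 2) in each group. Intervals came from limma-voom (limma 3.58.1), and count ratios were compared by exact permutation tests (scipy 1.17.1). The fit was tested on simulated counts. Positions, exon lengths and overlaps were those of GENCODE v29 (GRCh38), matched by symbol, and promoters those of RefSeq.

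The deviations of same-numbered libraries from their group means had correlations of 0.734, 0.593 and 0.419 across the 5622 genes with a mean log2 CPM above 5. Libraries of different numbers had -0.671 to 0.464, and shPBRM1 replicate 3 went slightly more with shCTL replicate 2 than with shCTL replicate 3. The replicate number was also fitted as a block. The other alternatives were DESeq2 1.42.0, limma-voom, RLE factors, library size only, other filters on low counts, each library left out, an adjusted p under 0.001 and a fold over 2. The text names the 10 genes, PBRM1, up to 3 genes up and 3 genes down with the largest change of each wider list, tested genes that overlap 1 of the 10 or start head to head within 1000 bases of it, the markers of BT-549 and other cells, and PCNA, CCNE1, CCNE2 and MKI67. Genes outside this rule are CPSF2, SNRPB, SNRPD1, SNRPD2, CSTF2T, NELFCD, LSM1, EDC3, E2F1, RNU7-1, AC010624.3, AC092301.1 and the histone examples. These and the 7 ratios were chosen after their values were seen. The 10 genes and all lists were chosen with earlier results of these data known.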

Additional observations from a re-analysis of the deposited data

How the results depend on the processing

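The 5 increases and 3 decreases among the 10 genes were called, in the same direction, under DESeq2, limma-voom, RLE factors, library size only, no filter, a mean of at least 50 counts and the replicate block (5 and 3 with the block), and with each library left out, except CASP8AP2 without shCTL replicate 3 (log2 fold change -0.07). With library size only, the median of all genes moved by -0.048. The block changed no call among the 10 genes and gave 4973 higher and 5226 lower among all genes. SLBP ranged from 0.28 to 0.36, LSM10 from 0.37 to 0.43, CPSF3 from 0.34 to 0.41 and SYMPK from -0.47 to -0.39 over all alternatives. At an adjusted p under 0.001, 4 of the 10 genes were higher and 2 lower, and 10 genes of the wider list were lower (32 higher). With a fold over 2 as well, 0 of the 10 genes were higher and 0 lower in edgeR (5 and 3 at the adjusted p alone), and 4 genes of the wider list were higher and 0 lower, against 443 higher and 1496 lower among all genes. With 3 libraries a group, no library was tested as an outlier. The 95% intervals of NPAT (-0.12 to 0.06) and ERI1 (-0.02 to 0.14) hold 0, and the smallest change that could be called was not measured.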
